A study of Caenorhabditis elegans with 2 samples.

Results

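The glutathione S-transferase genes of Caenorhabditis elegans were examined for regions enriched in chromatin bound by tagged SKN-1. The members were the 44 protein-coding genes named gst with a number, together with gsto-1, gsto-2, gstk-1 and gstk-2, which made 48 of the 19973 protein-coding genes on the nuclear chromosomes. For each member, the region with the highest signal was taken whose summit lay in the promoter window, which reached from 1000 bp before the annotated gene start to 500 bp after it. Chromosome II held 26 of the 48 genes, chromosome V held 9, chromosome IV held 5, chromosomes III and X held 3 each, and chromosome I held 2.

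Glutathione S-transferases join the tripeptide glutathione to reactive or foreign molecules, after which transporters can export the conjugate from the cell. Soluble members of the family are sorted by sequence into classes such as sigma, pi, omega and zeta, and the kappa class is structurally separate. SKN-1 is the worm relative of the mammalian Nrf factors, acts in the intestine and in a pair of sensory neurons after the embryo, and is known for switching on conjugating enzymes when worms meet oxidants or electrophiles. The gene gst-4 is widely used as a fluorescent reporter of that response. SKN-1 binds DNA as a monomer at a short site rich in A and T, unlike its mammalian relatives, which pair with small Maf proteins on the antioxidant response element.

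The samples were 2 biological replicates of 1 group, whole L4 larvae of mixed sex from strain OP342. This strain has the genotype unc-119(ed3) III with the transgene wgIs342, which supplies SKN-1 fused to eGFP, and both replicates carry both alleles. No treatment is named in the labels, no untagged strain is among the samples, and the labels do not say which cells carry the fusion, so the values are averages over whole animals. On the ce11 assembly the list from the pooled replicates held 29768 regions with a median width of 390 bp, each replicate list held 30000 regions with median widths of 240 bp (replicate 1) and 396 bp (replicate 2), and the thresholded list held 97. Signal is the authors' value for a region, on a scale the labels do not state, and rank 1 is the highest signal within a list. Read depth is unknown. A list filled to a fixed number contains weak regions, so the presence of a region is not a call of binding, and each count is set beside the share of all protein-coding genes that meets the same criterion.

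The stretches that carry the family's most regular feature are shown first. The SKN-1 site searched for was TGTCAT or TATCAT preceded by 2 bases that are each A or T, on either strand. The bases between the starts of gst-2 and gst-4, which lie 164 bp apart and point away from each other, are shown because they hold 2 such sites (chrIV:10142062-10142224, plus strand, the strand of gst-4). The 260 bases before the start of gst-5 are shown because they hold 2 sites inside a pooled region (chrII:10950092-10950351, plus strand, the strand of gst-5). The bases around the pooled summit before gst-44 are shown as a contrast, since this gene had the highest-ranked replicate region of the family and the stretch holds no site (chrV:16390686-16390886, plus strand, the strand of gst-44). Capitals mark a site, which reads as its reverse complement where it lies on the minus strand. All bases are from the RefSeq WBcel235 assembly, which is ce11.
gst-2 and gst-4: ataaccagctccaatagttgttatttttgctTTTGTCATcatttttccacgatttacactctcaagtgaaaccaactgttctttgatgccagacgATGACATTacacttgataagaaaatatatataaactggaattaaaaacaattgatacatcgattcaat
gst-5: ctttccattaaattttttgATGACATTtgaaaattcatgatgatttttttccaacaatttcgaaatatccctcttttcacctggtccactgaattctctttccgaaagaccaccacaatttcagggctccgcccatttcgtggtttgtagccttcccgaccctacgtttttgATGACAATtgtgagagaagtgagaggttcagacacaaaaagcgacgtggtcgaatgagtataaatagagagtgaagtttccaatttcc
gst-44: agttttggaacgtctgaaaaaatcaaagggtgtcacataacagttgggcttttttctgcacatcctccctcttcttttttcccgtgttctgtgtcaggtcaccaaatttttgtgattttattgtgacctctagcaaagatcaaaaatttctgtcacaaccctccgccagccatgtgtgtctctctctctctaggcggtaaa

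In many members the site was followed by the bases CA. The sequences that follow are 24 bases long, with the site in capitals and read along the strand that carries it, and each is shown because it contains the 9-letter form TTGTCATCA, which overlaps the site.
gst-1: aacaacttTTTGTCATcattttcg
gst-6: gttttggtTTTGTCATcaaatatc
gst-7: ttctgtagTTTGTCATcatttgct
gst-8: ctttaaagTTTGTCATcatttact
gst-10: caatttgaATTGTCATcaacatag
gst-13: cactatcaATTGTCATcatgtaga
gst-16: caacaccaTTTGTCATcatttttt
gst-18: agatcaaaATTGTCATcattactt
gst-20: aagtcatgTTTGTCATcatttttc
gst-30: tccaagcaATTGTCATcattttgg
gst-34: caaacactTTTGTCATcattaaat
gst-35: ccgaggcaATTGTCATcattgggc
gst-38: ccaagtttATTGTCATcaaatgtt
gsto-2: aagtgcaaTTTGTCATcatgtagg
The middles of these sites lay from 207 bp upstream of the start, at gst-8, to 7 bp upstream, at gst-13, except that at gst-38, which lay 43 bp downstream. The 9-letter form was chosen for counting after these sequences had been read.

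The site was present in the windows of 38 of the 48 members (79.2%, exact 95% interval 65.0 to 89.5%), beside 55.9% of all protein-coding genes. Within 500 bp upstream of the start it was present in 29 members (60.4%, 45.3 to 74.2%) beside 25.3% of all genes. The shares of members with the site were above those of all genes, in the window and in this shorter stretch. Within 250 bp upstream it was present in 26 members (54.2%) beside 14.2% of all genes. The 250 bp stretch was added after seeing the data, and its values are a description only. The 9-letter form lay in 21 windows (43.8%) beside 3.08% of all genes, values that are a description only, because the form was picked from the sequences of the same members. Members are related by descent and some share a window, so the intervals, which count genes as independent, are too narrow. By contrast, the core of the antioxidant response element, TGACNNNGC, was in 10 windows (20.8%, 10.5 to 35.0%) beside 23.6% of all genes, a share near the background.

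**Figure D1:**
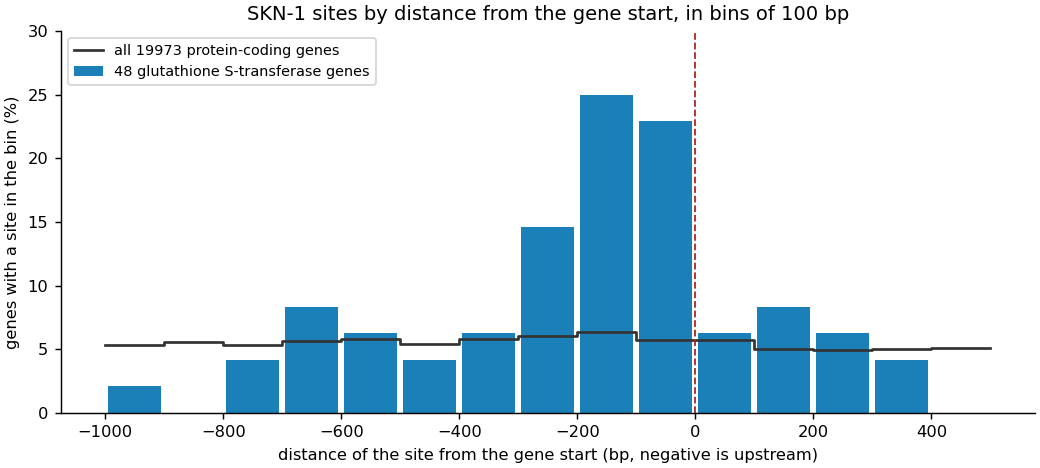
Percent of genes with a SKN-1 site in each bin of 100 bp along the promoter window, as bars for the 48 glutathione S-transferase genes and as a line for all 19973 protein-coding genes. The members rise to 25.0% and 22.9% in the 2 bins before the start, where all genes are at 6.33% and 5.70%.

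The windows held 58 distinct sites, of which 46 lay upstream of a start and 29 within 250 bp of it. Of the 58, 4 lay inside a pooled region (6.90%), 1 inside a region of replicate 1 (1.72%) and 10 inside a region of replicate 2 (17.2%). Among the 15252 distinct sites in the windows of all protein-coding genes, the shares inside a region were 11.5%, 7.21% and 11.9%, and each lies within the exact 95% interval of the members' share (1.91 to 16.7%, 0.0436 to 9.24% and 8.59 to 29.4%). The 4 sites inside a pooled region were both of those printed for gst-5, the one 7 bp before gst-13 and one 88 bp downstream of the gst-42 start. In all, 46 of the 58 sites lay in no region of any of the 3 lists. The matching share for the sites of all genes was not computed, so this count is no result about the family. The site was about as common in windows with a pooled region (12 of 15 members, 80%) as in those without (26 of 33, 78.8%). Among all protein-coding genes the shares were also close, at 54.2% with a pooled region and 57.1% without.

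None of the 48 members had a thresholded peak in its window, which allows a share of up to 6.25% by the limit of 3 counts (exact upper limit 7.40%), beside 0.371% of all protein-coding genes. The highest signal of any member in the pooled list, 14.5 at gst-36, was 49.9% of the weakest thresholded signal, 29.0. In the pooled list 15 members had a region of any strength (31.2%, 18.7 to 46.3%) beside 41.7% of all genes. The list of replicate 1 had a region for 20 members (41.7%, 27.6 to 56.8%) beside 42% of all genes, and that of replicate 2 for 20 beside 41.6%. Among the 10000 strongest pooled regions, 6 members were represented (12.5%, 4.73 to 25.2%) beside 17.2% of all genes. Every one of these intervals includes the share of all genes, and the counts of regions are therefore no result particular to the family.

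**Figure D2:**
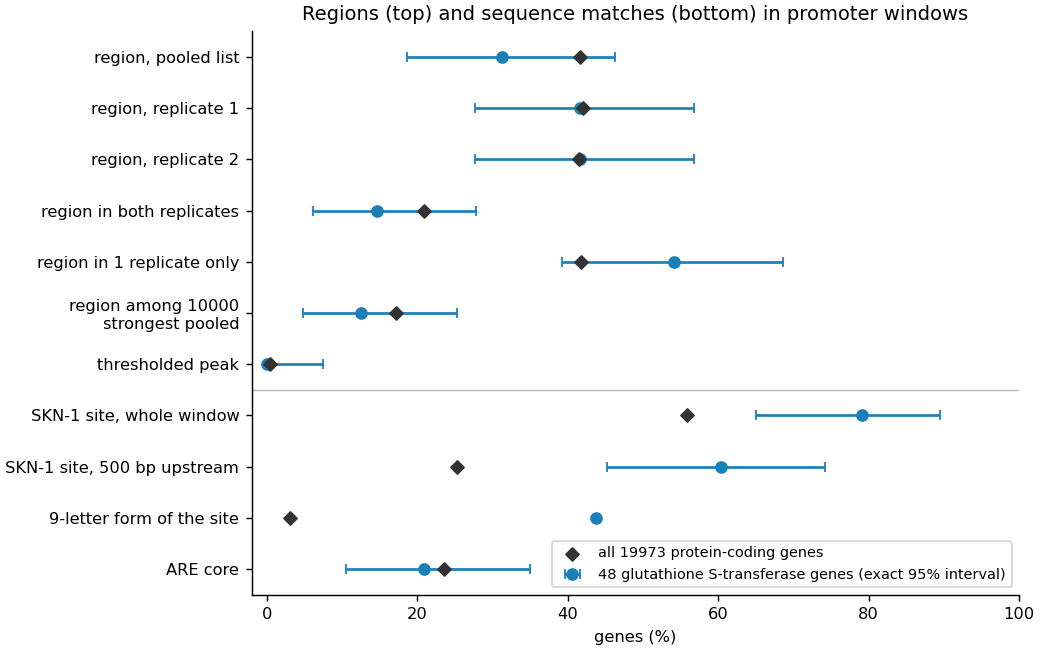
Percent of genes meeting each criterion, as circles with exact 95% intervals for the 48 glutathione S-transferase genes and as diamonds for all 19973 protein-coding genes. The upper rows, on regions, have the diamond inside the interval; of the lower rows, on sequence, the intervals of the SKN-1 site lie above the diamond and that of the antioxidant response element (ARE) core includes it. The 9-letter form, picked from these genes' sequences, has no interval.

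The 15 strongest pooled regions of members had a median rank of 11375, from 3071 to 25442, and a median signal of 10.5, from 7.60 to 14.5. All protein-coding genes with a pooled region had a median rank of 12402 and a median signal of 10.2. Summits lay upstream of the start in 8 of the 15 members (53.3%) and in 66.7% of all genes with a region. The 15 members had 14 distinct regions, because gst-2 and gst-4 shared 1. The summit fell in a 5′ UTR in 4 cases, a coding exon in 4, an intron in 3 and an intergenic stretch in 4. It was nearest to the member's own start in 11 cases, and 6 of the 15 members shared their region with the window of another protein-coding gene.

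The strongest of these regions lay inside gst-36 (WBGene00001784, minus strand), in an intron and 229 bp past the start (chrX:9862536-9862925), with a pooled rank of 3071. Replicate 1 had no region in the gst-36 window. In replicate 2 the overlapping region ranked 27150 (signal 4.28), and the strongest in the window, 687 bp upstream and beside the start of R07B1.5, ranked 23196 (signal 4.69). The high place of gst-36 in the pooled list was therefore not matched in either replicate list.

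The region before gst-5 (WBGene00001753, plus strand) was the strongest in the family to lie in intergenic sequence next to its own gene. Its pooled summit was 107 bp upstream of the start (chrII:10950050-10950439), with a signal of 13.1 and rank 4812. Replicate 2 had a region 223 bp upstream with a signal of 7.21 and rank 7721, and replicate 1 had none. Both printed gst-5 sites, 237 and 84 bp upstream, lay inside the pooled region and inside that of replicate 2. At gst-13 (WBGene00001761) the pooled summit was in the 5′ UTR, 43 bp downstream of the start (chrII:9231305-9231694), with a signal of 12.2 and rank 6470. Replicate 2 had an overlapping region at rank 10141 (signal 6.63), and replicate 1 had none. These were the 2 members in which a pooled region enclosed the 9-letter form.

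The zeta class contains maleylacetoacetate isomerase, an enzyme of tyrosine breakdown, which gst-42 encodes. The pooled summit in the gst-42 window lay 604 bp upstream, in an intron of the neighbour D1053.2 (chrX:11728345-11728734), with a signal of 11.5 and rank 8131. Replicate 2 had a region with the same summit, at rank 1915 (signal 10.02), the highest rank of any member in that list. Replicate 1 had a region 910 bp upstream at rank 17956 (signal 4.86), which overlapped both. The summit was 389 bp from the start of D1053.2 and so nearer to that gene than to gst-42.

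At gst-43, the member closest to gst-42 in coding sequence (63.1% identical), the pooled region also lay nearer to another gene. Its summit coincided with the start of copa-1, which encodes a coatomer subunit, 465 bp upstream of gst-43 (chrI:2900665-2901054), and had a signal of 11.0 and rank 9644. Replicate 1 had a region there at rank 891 (signal 10.2) and replicate 2 at rank 10091 (signal 6.64). Both replicate regions overlapped the pooled region, and the ranks of the replicates were far apart.

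The omega class is represented by gsto-1, gsto-2 and gst-44, and the latter pair were each other's closest members, with 65.2% identical coding bases. The pooled summit of gst-44 (WBGene00001792) lay 105 bp upstream (chrV:16390591-16390980), with a signal of 10.2 and rank 12312. Replicate 1 had a region 167 bp upstream at rank 570 with a signal of 11.2, and replicate 2 listed none in the window. This was the highest rank of a member in any list, found in 1 replicate. With gst-43 it made up the 2 members (4.17%, 0.509 to 14.3%) among the 1000 strongest regions of replicate 1, beside 2.48% of all genes.

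The pooled region of gsto-1 was centred 440 bp downstream of the start in a coding exon (chrIII:7946383-7946772), with a signal of 11.4 and rank 8529. The replicate regions with a summit in the window lay elsewhere, before the gene, with replicate 1 at 152 bp upstream (rank 25894, signal 4.14) and replicate 2 at 250 bp upstream (rank 15629, signal 5.65). They overlapped each other but not the pooled region. A further region of replicate 2, at rank 25145 (signal 4.48), did overlap the pooled region. Its summit lay outside the window, so it was not counted. At gsto-2 the pooled list had no region, replicate 1 had a region 924 bp upstream (rank 12291) and replicate 2 a region 359 bp downstream (rank 7950), 1283 bp apart. Of the kappa class, which in animals is found in mitochondria and peroxisomes, gstk-1 had a pooled region 668 bp upstream (rank 23345, signal 7.92), nearer to the start of ZK1307.1, and a replicate 2 region at rank 13047, and gstk-2 had none in any list despite 4 sites in its window.

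**Figure D3:**
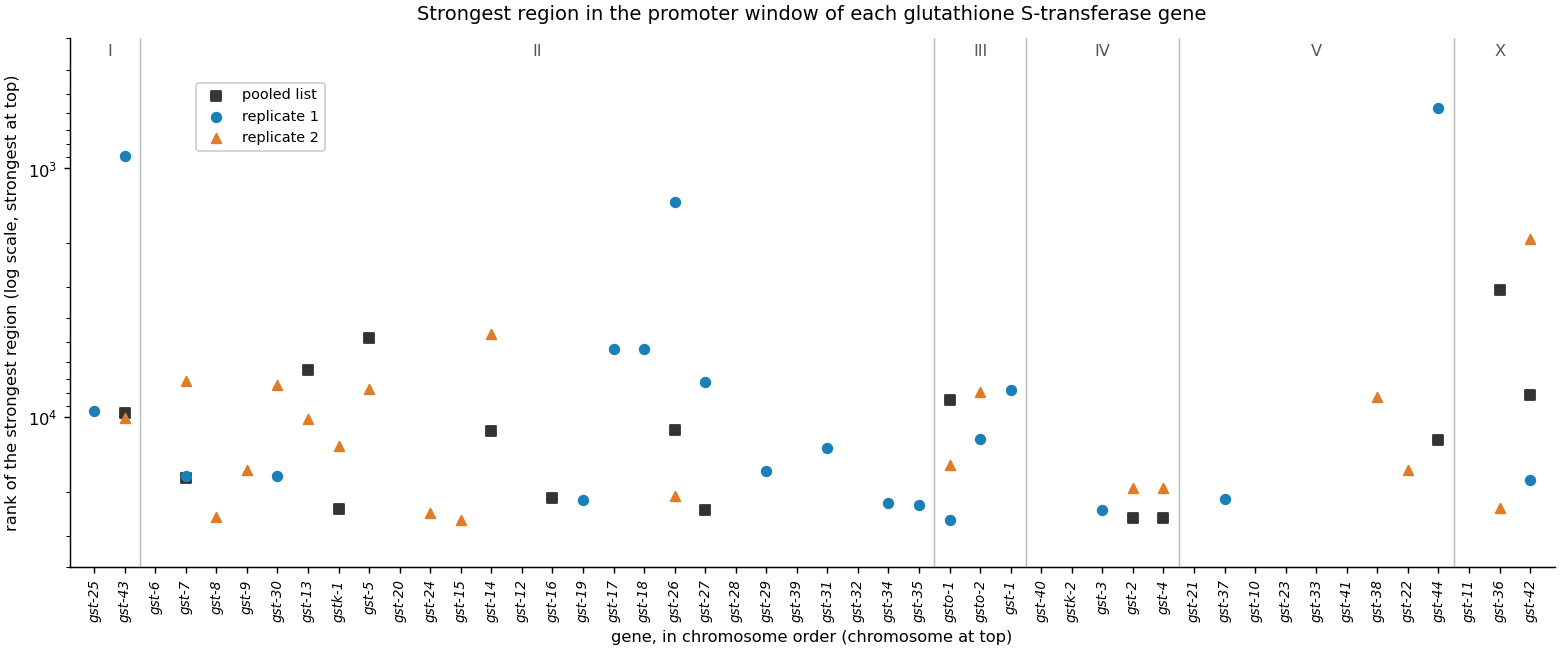
Rank of the strongest region in the promoter window of each of the 48 genes (log axis, strongest at top) in the pooled list (squares), replicate 1 (circles) and replicate 2 (triangles), with genes in chromosome order. A gene without a symbol had no region in that list; most genes have a symbol from 1 replicate only, and the highest-placed are gst-44 and gst-43 in replicate 1.

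The gst-2 and gst-4 pair, with the sites printed above, had 1 of the weakest pooled regions of the family. It lay in the 5′ UTR of gst-2 (chrIV:10141443-10141832), 423 bp downstream of the gst-2 start and 587 bp upstream of that of gst-4, at rank 25442 of 29768. The printed stretch lies wholly outside this region. Replicate 2 had a region (chrIV:10142148-10142543) with a rank of 19338 and a signal of 5.15, whose summit was 121 bp downstream of the gst-4 start and 109 bp from that of dhs-12, a short-chain dehydrogenase gene. That region enclosed the site 64 bp upstream of gst-4 but not the one 128 bp upstream. Another region of replicate 2 in the gst-4 window, at rank 24014 (signal 4.60), overlapped the pooled region. Replicate 1 had no region in either window.

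The 2 replicate lists were also compared member by member. A region was present in both lists for 7 members (14.6%, 6.07 to 27.8%) beside 20.9% of all genes, and in 1 list only for 26 (54.2%, 39.2 to 68.6%) beside 41.8% of all genes. The latter divided evenly, with 13 members in replicate 1 only (27.1%) beside 21.1% of all genes and 13 in replicate 2 only (27.1%) beside 20.7%. The remaining 15 had a region in neither replicate, and 14 had none in any of the 3 lists. The intervals of the 4 shares include those of all genes.

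The 7 members in both lists were gst-7, gst-26, gst-30, gst-42, gst-43, gsto-1 and gsto-2. Their strongest regions in the 2 replicates overlapped in 3 cases, gst-42, gst-43 and gsto-1, compared with 50.3% of the 4167 protein-coding genes with a region in both lists. None of the 7 ranked within the first 10000 in both lists, a count of 0 that allows 42.9% by the limit of 3 counts (exact upper limit 41.0%), and 22.7% of those 4167 genes did. At gst-26 the rank was 1362 in replicate 1 (signal 9.40, 227 bp downstream, in a coding exon) and 20740 in replicate 2 (signal 4.97, 426 bp upstream, within gst-27). At gst-7 the ranks were 17225 (317 bp downstream) and 7183 (631 bp upstream). At gst-30 they were 17249 (448 bp upstream) and 7403 (54 bp downstream), the latter region enclosing 2 of the 3 sites there. At gst-7 and gst-30 no regions of the replicates overlapped. At gst-26 each replicate also had a weaker region overlapping the strongest of the other, at rank 8590 in replicate 1 and 26937 in replicate 2, so both places were in both lists.

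**Figure D4:**
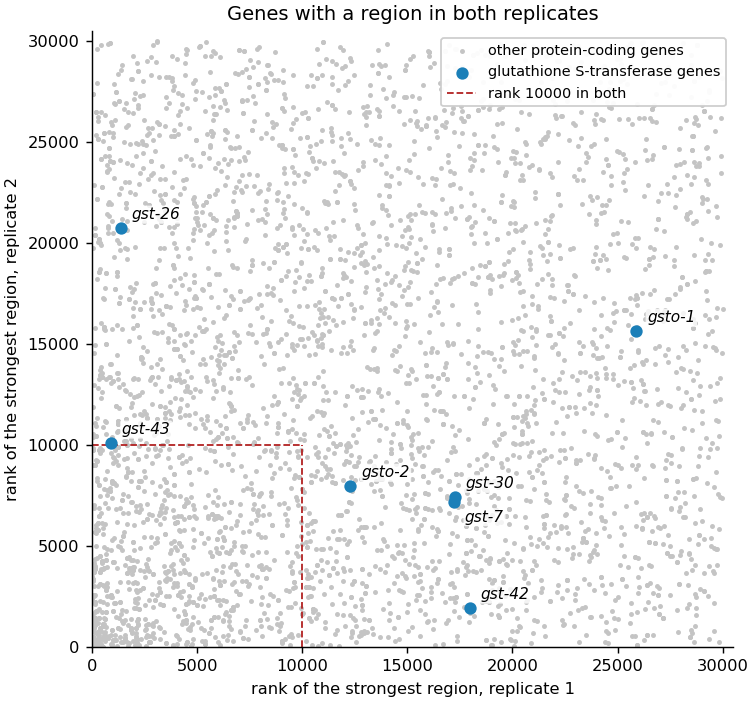
Rank of the strongest region in the promoter window in replicate 1 (x axis) and replicate 2 (y axis) for the protein-coding genes with a region in both lists, other genes in grey and the 7 glutathione S-transferase genes in blue. The dashed lines enclose ranks up to 10000 in both lists, a square that holds none of the 7.

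Among the 13 members with a region in replicate 1 only, gst-44 at rank 570 was followed by gst-17 and gst-18, which shared a region with tag-10 at rank 5329 (signal 7.05, 746 bp upstream of gst-18). Next came gst-27 at rank 7245 (318 bp upstream), gst-1, of the pi class, at rank 7771 (466 bp downstream), and gst-25 at rank 9467 (260 bp upstream). The ranks of gst-31, gst-29, gst-37, gst-19, gst-34, gst-35 and gst-3 ran from 13292 to 23649. Only gst-27 and gst-44 of the 13 also had a pooled region.

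Of the 13 members with a region in replicate 2 only, 7 also had a pooled region, namely gst-2, gst-4, gst-5, gst-13, gst-14, gst-36 and gstk-1. The highest rank was that of gst-14, 4613 (signal 8.28), with its summit 817 bp upstream inside a coding exon of gst-12. After gst-5 at 7721 came gst-38 at 8279 (signal 7.06, 235 bp downstream), whose region enclosed the 9-letter form printed above. The ranks of gst-22 and gst-9 were 16301 and 16387, and those of gst-24, gst-8 and gst-15 ran from 24253 to 25999. For the single-list members together the median rank was 16344, and for all protein-coding genes in 1 list only it was 14125.

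Of the 48 genes, 25 lay in 4 tandem clusters, defined as neighbouring member starts at most 10000 bp apart. Clustered members had a median of 75.1% identical coding bases with their closest member, and the 23 single genes 65.2%. The closest pairs were gst-7 with gst-8 (84.5%), gst-26 with gst-27 (83.7%) and gst-12 with gst-14 (82.7%), and for 20 of the 25 the closest member was in the same cluster. A pooled region was present in the windows of 7 of the 25 clustered members, with a median rank of 21214. It was present for 8 of the 23 single members, with a median rank of 8330. Among all genes 41.7% had one, with a median rank of 12402. The clustered median counts the region shared by gst-2 and gst-4, at rank 25442, for both genes. The differences between clustered and single members were not tested.

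The cluster from gst-6 to gst-9 on chromosome II (chrII:4879891-4891585 by starts) has 4 genes on the plus strand, with pgm-1 and R05F9.7 between them. Its 1 pooled region lay in a coding exon of gst-7, 160 bp downstream of the start (signal 8.94, rank 17580). Replicate 1 had a region for gst-7 alone, while replicate 2 had regions for gst-7, gst-8 and gst-9. With 4 genes this is a description only, and the shares of all genes were 42% and 41.6%. The region of gst-8 in replicate 2, 68 bp upstream at rank 25244, enclosed its 9-letter form, whereas gst-6, with 2 sites within 100 bp upstream, had a region in no list.

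The cluster from gst-20 to gst-18 has 9 genes on the minus strand over 21063 bp of chromosome II. Its pooled regions were those of gst-14 (signal 10.5, rank 11375, 815 bp upstream) and gst-16 (signal 8.26, rank 21214, 415 bp downstream in an intron). The gst-14 summit lay inside gst-12, its closest relative, but outside the gst-12 window. The gst-16 region was matched by no region of either replicate. Replicate 1 had 2 distinct regions, for gst-17, gst-18 and gst-19, and replicate 2 had 4, for gst-14, gst-15 and gst-24. No gene of the cluster had a region in both, beside 20.9% of all genes. The regions of replicate 2 lay near gst-24 to gst-12 and those of replicate 1 near gst-19 to gst-18. With so few regions these places are a description only. The windows of gst-17, gst-18 and gst-19 are also more than 20% repeated, as given below.

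The cluster from gst-26 to gst-35, also 9 genes on the minus strand, covers 20836 bp of the same chromosome, with Y53F4B.36 between members. Pooled regions were listed for gst-26 (signal 10.5, rank 11274, in its coding exon) and gst-27 (signal 7.86, rank 23735, 306 bp upstream). Replicate 1 had regions for 6 of the 9 genes, gst-26, gst-27, gst-29, gst-31, gst-34 and gst-35, and replicate 2 for gst-26 alone. The shares of all genes were 42% in replicate 1 and 41.6% in replicate 2. With 9 related genes these counts are a description only. The 9-letter forms of gst-34 and gst-35 lay in none of the regions. The fourth cluster, gst-3, gst-2 and gst-4 on chromosome IV, spans 1982 bp between its outer starts, and beside the regions of gst-2 and gst-4 it had a replicate 1 region for gst-3 at rank 23649, 782 bp upstream inside gst-2, which enclosed a site.

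**Figure D5:**
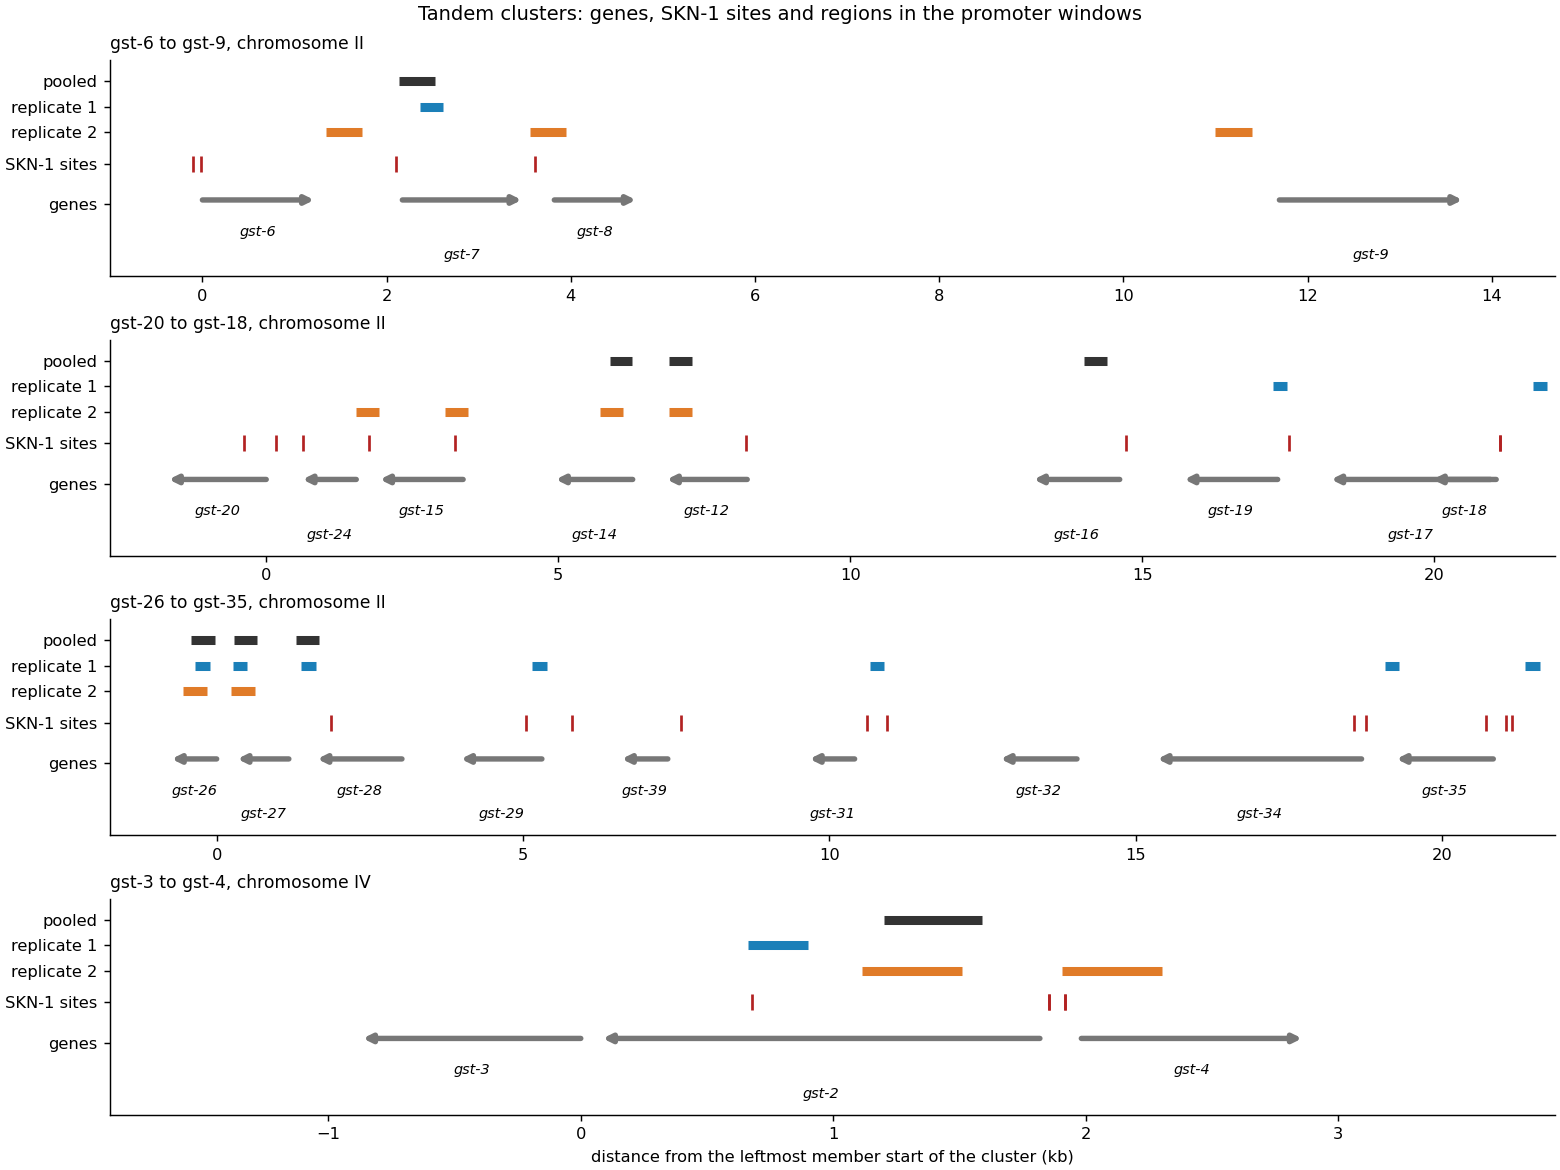
The 4 tandem clusters, with distance in kb from the leftmost member start, member genes as arrows along their strand, SKN-1 sites as ticks and the regions of the pooled list, replicate 1 and replicate 2 as bars. Only regions with a summit in a member's promoter window are drawn; the replicate bars coincide at few places, and most ticks have no bar above them.

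Several promoter windows held much repeated sequence. In 9 members more than 20% of the 30-base stretches of the window occurred exactly elsewhere in the genome. These were gst-10 (100%), gst-39, gst-28, gst-25, gst-32, gst-12, gst-17, gst-18 and gst-19. Of the 9, 0 had a pooled region, 4 a region of replicate 1 and 0 a region of replicate 2. Among all 1798 protein-coding genes with such windows, 16.4% had a pooled region, 18.5% a region of replicate 1 and 16.96% a region of replicate 2. In the other 39 members 15 had a pooled region (38.5%), beside 44.2% of the 18175 genes with similar windows. How reads with several matches were treated is not given by the labels, and the part of repeats in the presence of regions was not tested.

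A comparison list of 45 genes covered glutathione chemistry and related groups. It held 10 genes of glutathione synthesis and recycling, 8 glutathione peroxidases, 8 conjugate exporters and 3 glyoxalases. It also held 12 other proteins with a glutathione S-transferase fold and 4 genes of tyrosine breakdown. In that order, 6, 2, 5, 1, 4 and 4 genes of the groups had a pooled region. A pooled region was present for 22 of the 45 (48.9%, 33.7 to 64.2%) beside 41.7% of all genes. A region in both replicates was present for 12 (26.7%, 14.6 to 41.9%) beside 20.9% of all genes. Both intervals include the share of all genes. A thresholded peak was present for 0, which allows 6.67% by the limit of 3 counts (exact upper limit 7.87%), beside 0.371% of all genes. The median pooled rank was 9053.5, and by group it ran from 2664.5 for tyrosine breakdown to 17176 for the conjugate exporters. The 9-letter form was in the windows of 8 of these 45 (17.8%) and of 13 of 141 cytochrome P450 and glucuronosyltransferase genes (9.22%). Among all protein-coding genes the share was 3.08%. In glutathione synthesis, gcs-1, which encodes the ligase of the first step, had a pooled region at rank 3338 and a replicate 2 region at rank 2145, both centred 669 bp upstream. Its replicate 1 region, at rank 11995, lay 90 bp upstream and overlapped neither.

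The list includes 4 other genes of tyrosine breakdown, the pathway in which gst-42 acts, and each had a pooled region, beside 41.7% of all genes. The list was chosen with earlier results of these data known, and 4 genes are few. The count and the ranks below are therefore a description only. For fah-1, whose enzyme follows maleylacetoacetate isomerase, the ranks were 712 in the pooled list (signal 19.3), 1386 in replicate 1 and 1612 in replicate 2. For hpd-1, which encodes a dioxygenase, they were 1822 (signal 16.1), 17915 and 1211, and for tatn-1, the tyrosine aminotransferase gene, 3507 (signal 14.1), 4035 and 20950. The homogentisate oxidase gene hgo-1 ranked 7912 in the pooled list and 3297 in replicate 1 and had no region in replicate 2. The ranks of fah-1 were within 10000 in both replicates, which held for 4.74% of all protein-coding genes and for no glutathione S-transferase gene. Between fah-1 and hpd-1 in the pooled list came genes outside that pathway. The mitochondrial import gene mtx-1 ranked 1266 (signal 17.3), with its summit 28 bp from the start of dnj-12. Its ranks were also within 10000 in both replicates, 4408 in replicate 1 and 3708 in replicate 2. These 2 replicate regions did not overlap each other, but another region of replicate 2, at rank 8010, overlapped the pooled region. Of the conjugate exporters, mrp-6 ranked 1613 in the pooled list (signal 16.5) and 1965 in replicate 2, with none in replicate 1.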

How the data were processed

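The lists, in narrowPeak form on ce11, are the authors' own. Per the labels, the pooled and replicate lists combine peaks and background regions before thresholding by irreproducible discovery rate, and the thresholded list is the outcome of that step. The deposited signal of each region is on an unstated scale and served only for ranks and descriptions inside each list. Not given in the sources used here: caller, aligner, treatment of the control and threshold. Read depth is unknown, and intervals cover counting over genes only. The ce10 lists were not used.

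Genes came from Ensembl release 115 and bases from RefSeq WBcel235. A region counted for every gene whose window held its summit, with windows reaching from 1000 bp before the outermost start to 500 bp after it. Sites were searched on both strands, and the distance given for a single site is that of its middle. Repeats were 30-base stretches found exactly elsewhere on either strand. Coding identity came from global alignment of the longest coding sequences. Intervals are Clopper-Pearson at 95%, and a count of 0 is given a limit of 3 counts. Python 3.11.15, pandas 2.3.3, scipy 1.17.1 and Biopython 1.88 were used. With 1 group there was no comparison of conditions and no test was made. The assignment of regions and the site search were tested on simulated data.

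The members and lists were chosen with earlier results of these data known. The comparison list of glutathione and related genes had 47 symbols, of which 45 matched the annotation. Every member could be named, with full values for gst-4, the 10 strongest in the pooled list, those in 1 replicate list only (up to 15) and those in clusters of at least 3. Other genes named were up to 10 of the list by pooled signal with gcs-1, and neighbours sharing a region, with hgo-1 named as a member of a pathway given in full. Alternatives were other windows, any overlap of at least 1 bp, the 10000 or 1000 strongest regions, the nearest start only, single replicates and other gaps between clustered genes.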

Additional observations from a re-analysis of the deposited data

How the results depend on the processing

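Counts of regions moved with the window. From 500 bp upstream to the start, members with a region numbered 5 in the pooled list, 2 in both replicate lists and 13 in 1 list only. From 2000 bp upstream to 500 bp downstream, they numbered 24 in the pooled list and 17 in both lists. Background shares in the pooled list were 17.5% and 56.4% under these windows. Counts in this paragraph without a share of all genes show the effect of the setting and are no result about the family. Among the 10000 strongest regions of each list, the counts were 6 pooled (beside 17.2% of all genes), 0 in both (beside 4.74%) and 15 in 1 list only. Where a region counted only for the nearest start, 4 members were in both lists. The median pooled rank was 12312, 11855.5 and 11843.5 for the shorter window, the longer window and the nearest start. No pooled list was remade with 1 replicate left out. In the replicates' own lists of 30000 regions the median rank was 14916.5 (replicate 1) and 14338 (replicate 2), and members with a region numbered 20 each time. The thresholded count of 0 became 2 among the 1000 strongest regions of replicate 1 and remained 0 among those of the pooled list and of replicate 2. Added after seeing the data, the 9-letter form in place of the site gave 21 members, and the site within 250 bp upstream gave 26. Restricting the counts to windows at most 20% repeated, also added then, gave 15 pooled, 7 in both and 22 in 1 list only. Clustered members numbered 24 and 25 with largest gaps of 5000 and 20000 bp.

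The lists hold no read counts, so a missing region cannot be separated from low depth. Regions are 240 to 396 bp wide, and neighbouring starts such as those of gst-2 and gst-4 are closer than that. No paired analysis was possible because there is 1 group.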
